A study of Mus musculus with 6 samples.

Results

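The 5 genes described here are Vsig2, Nrgn, Spa17, Siae and Exph5, all on mouse chromosome 9, which also carries Zbtb16, the gene of the transcription factor PLZF. They were chosen from their measured difference between genotypes and from their position, and make up 5 of 22180 genes tested. Each is represented by 1 array row whose only gene symbol is that gene, and 0 rows with several symbols name any of them. The first 4 are direct neighbours among the measured genes, at places 268 (Vsig2), 269 (Nrgn), 270 (Spa17) and 271 (Siae) of 1254 in the gene order of assembly GRCm38.p6, while Exph5 is at place 525 and Zbtb16 at place 477. Expression was measured on whole-transcript arrays in invariant natural killer T (iNKT) cells from 3 samples of genotype PLZF_ON and 3 samples of genotype WT. PLZF_ON mice express a form of PLZF that is constitutively acetylated, and WT mice are the controls. The design description names replicates 1 and 2 of each group as the arrays analysed by the study, and the third array of each genotype is available as well. No source used here gives the strain, age, organ, number of animals per sample or the promoter behind the PLZF_ON allele.

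The iNKT cell is a T cell that recognises lipids on CD1d, and PLZF, a BTB-domain zinc finger protein, drives its innate-like programme during development in the thymus. The 5 genes have no shared function in the textbook sense. Vsig2 encodes a transmembrane protein of the immunoglobulin superfamily. Nrgn encodes neurogranin, a small protein best known from neurons, which binds calmodulin when calcium is low. Spa17 encodes a sperm protein with a domain like that of the regulatory subunits of protein kinase A. Siae encodes an esterase that takes acetyl groups off sialic acids, and Exph5 encodes exophilin-5, an effector of the Rab27 GTPases that direct secretory vesicles.

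Median log2 values of the arrays ranged from 4.88 to 5.01. PLZF_ON replicate 3 stood apart from the other 5 arrays, with correlations of 0.895 to 0.898 against 0.957 to 0.973 among those 5, and with an SD over rows of 1.79 against 1.97 to 2.01. The T cell markers Cd3d, Cd3e and Cd3g had a median between 10.23 and 10.93 in PLZF_ON and between 10.93 and 11.04 in WT. Zbtb16 itself was at 10.48, 10.68 and 9.54 in PLZF_ON replicates 1 to 3, against 9.96, 10.19 and 9.82 in WT replicates 1 to 3. The deposited table has no detection flags, so levels are read against the 95th percentile of 1390 genes for olfactory or vomeronasal receptors, called the receptor percentile here. It lay between 5.05 and 5.26 on 5 arrays and at 5.66 on PLZF_ON replicate 3. Since the labels do not tie replicates to different animals, p-values cover the spread among these samples and no more, and that spread may be technical. In such bulk samples a change in the share of cells that express a gene and a change in its RNA per cell cannot be told apart.

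Of the 5 genes Vsig2 had the largest gap between groups on the arrays the study analysed. Its log2 level was 8.54 on both PLZF_ON replicates 1 and 2 and 6.38 on PLZF_ON replicate 3, against 4.60, 4.98 and 5.88 in WT replicates 1 to 3. All 3 PLZF_ON arrays were above all 3 WT arrays, but replicate 3 of both groups lay between the others, so that the gap between groups was 3.55 for replicates 1 and 2 and 0.50 with replicate 3. Among the tested rows of the same array the Vsig2 level stood at percentile 93.8, 93.9 and 76.2 in PLZF_ON, against 41.1, 49.4 and 64.8 in WT. In WT replicates 1 and 2 Vsig2 was below the receptor percentile, and in WT replicate 3 above it. The log2 difference of Vsig2 over the 4 arrays was 3.74 (SE 0.17, n = 2 per group), or 13.4-fold. With WT taken at the receptor percentile over all arrays (5.21) it was 3.32.

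Nrgn was the brightest of the 5 genes on each PLZF_ON array and had the largest gap between groups over all 6 arrays. It was at 10.13, 10.20 and 9.26 in PLZF_ON replicates 1 to 3, against 6.84, 7.54 and 6.64 in WT replicates 1 to 3. The groups did not overlap, with a gap of 1.72 over all 6 arrays, and every array was above the receptor percentile. Neurogranin transcripts stood at percentile 98.3 to 98.9 of the rows on PLZF_ON arrays, against 75.8 to 85.9 on WT arrays. The log2 difference of Nrgn was 2.97 (SE 0.24, 7.85-fold) over the 4 arrays.

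Spa17 was at 7.55, 7.93 and 5.59 in PLZF_ON replicates 1 to 3, against 5.49, 5.56 and 5.95 in WT replicates 1 to 3. PLZF_ON replicates 1 and 2 were above every WT array, but PLZF_ON replicate 3 lay within the WT values and below the receptor percentile of its own array. The log2 difference of Spa17 over the 4 arrays was 2.22 (SE 0.17, 4.65-fold).

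Siae was at 8.21, 8.81 and 6.75 in PLZF_ON replicates 1 to 3, against 7.14, 6.87 and 6.15 in WT replicates 1 to 3. Here too PLZF_ON replicate 3 lay within the range of WT, while all 6 arrays were above the receptor percentile. The log2 difference of Siae over the 4 arrays was 1.51 (SE 0.23, 2.85-fold). In the gene table Spa17 and Siae share 96 bases, and whether probes of either row lie in them was not analysed here.

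Exph5, on another stretch of the chromosome, was the dimmest of the 5. Its level was 6.35, 6.02 and 4.85 in PLZF_ON replicates 1 to 3, against 3.80, 3.28 and 3.31 in WT replicates 1 to 3. The groups did not overlap, with a gap of 1.05 over all 6 arrays. Only PLZF_ON replicates 1 and 2 were above the receptor percentile, so no WT array showed Exph5 above that level. The log2 difference of Exph5 over the 4 arrays was 2.65 (SE 0.22), or 6.26-fold, and with WT taken at the receptor percentile over all arrays it was 0.98.

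**Figure D1:**
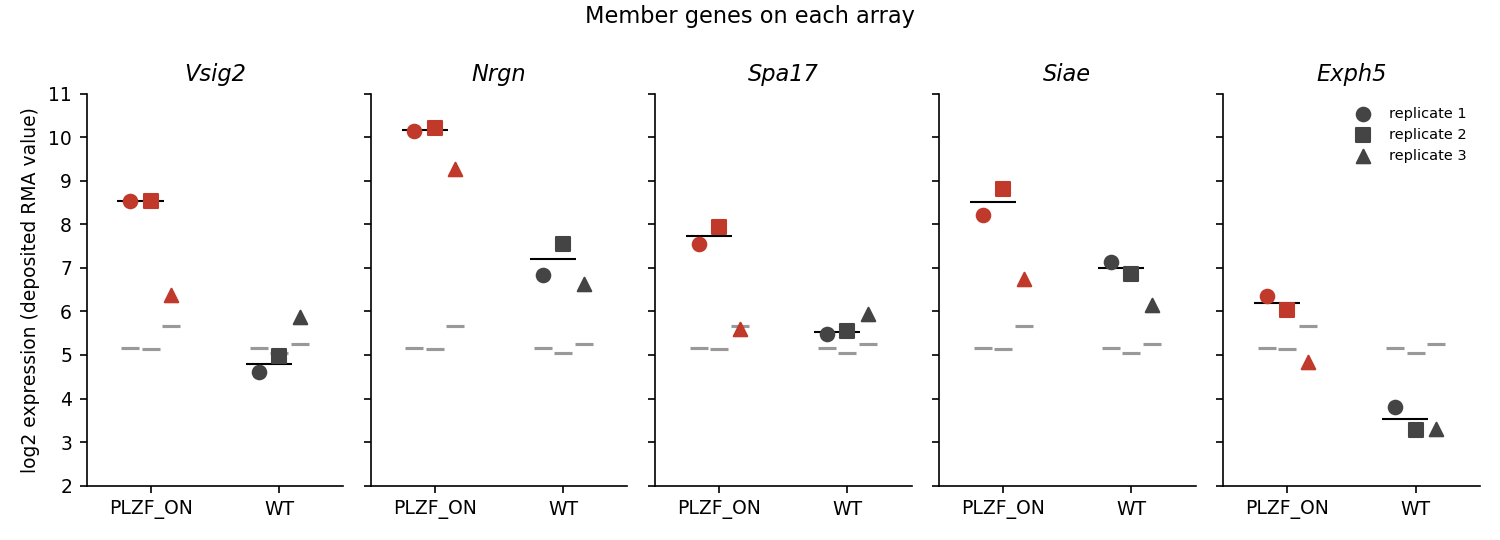
Deposited log2 expression of the 5 genes on each array, PLZF_ON in red left of WT in dark grey, with marker shapes for replicates 1 to 3, black lines for the mean of replicates 1 and 2, and short grey lines for the 95th percentile of receptor genes on the same array. PLZF_ON replicates 1 and 2 lie above all WT arrays for each gene, and PLZF_ON replicate 3 stays above all WT arrays for Vsig2, Nrgn and Exph5.

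Vsig2, Nrgn, Spa17 and Exph5 were among the 24 rows called higher over the 4 arrays by limma (0.102% of 23521), and Siae was not. The rule that chose the genes used this contrast, so nothing is read from that count. The row just inside the threshold belonged to Sntb2 (log2 difference -1.43) and the row just outside to Herc3 (-1.37). The groups of 4 arrays did not overlap for any of the 5 genes, which also held, in the higher direction, for 18.9% of all rows. The number of called rows in either direction, 40, was 0 without PLZF_ON replicate 2 (1803 with an unadjusted p under 0.05) and 106 without WT replicate 2. Without any 1 of these 4 arrays, from which the genes were chosen, the log2 difference lay between 3.55 and 3.93 for Vsig2. It lay between 2.62 and 3.32 for Nrgn, 2.03 and 2.40 for Spa17, 1.21 and 1.81 for Siae, and 2.39 and 2.91 for Exph5.

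Taken over all 6 arrays, means and SDs show how far replicate 3 widened the groups. Vsig2 averaged 7.82 ± 1.25 in PLZF_ON and 5.15 ± 0.65 in WT (SD, n = 3 each). Nrgn averaged 9.86 ± 0.52 in PLZF_ON and 7.01 ± 0.48 in WT, and Exph5 5.74 ± 0.79 in PLZF_ON and 3.46 ± 0.29 in WT. For these 3 genes the groups did not overlap, which held in the higher direction for 5.55% of all rows. Spa17 averaged 7.02 ± 1.25 in PLZF_ON and 5.66 ± 0.25 in WT, and Siae 7.93 ± 1.06 in PLZF_ON and 6.72 ± 0.51 in WT. The log2 difference over 6 arrays was 2.66 for Vsig2, 2.86 for Nrgn, 1.36 for Spa17, 1.21 for Siae and 2.28 for Exph5. Without PLZF_ON replicate 3 it was 3.38 for Vsig2, 3.16 for Nrgn, 2.07 for Spa17, 1.79 for Siae and 2.72 for Exph5. Without PLZF_ON replicate 2 it was 2.30 for Vsig2, 2.69 for Nrgn, 0.91 for Spa17, 0.77 for Siae and 2.14 for Exph5, so that the values of Spa17 and Siae depended on single PLZF_ON arrays. Of the 6 rows that limma called higher over 6 arrays (0.0255% of rows), 1 was that of Nrgn and none was that of another of the 5 genes. These 6 arrays include the 4 that chose the genes, so nothing is read from that count. The rows called in either direction over 6 arrays, 22, numbered 107 without PLZF_ON replicate 3, 6 without PLZF_ON replicate 1, 1 without WT replicate 3, and 0 without PLZF_ON replicate 2, WT replicate 1 or WT replicate 2 (1531, 852 and 960 with an unadjusted p under 0.05).

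The replicate 3 pair holds the arrays outside that contrast, with 1 array per group and therefore no test. Nrgn was higher in PLZF_ON replicate 3 than in WT replicate 3 by 2.63 on the log2 scale, or 6.17-fold, and Exph5 by 1.54, or 2.91-fold. These 2 of 5 genes had a difference of at least 1, a size reached by 2.88% of all rows in this pair. For Exph5 both values of the pair lay below the receptor percentile of their own array. They were 4.85 against 5.66 on PLZF_ON replicate 3 and 3.31 against 5.26 on WT replicate 3. Siae differed by 0.60 and Vsig2 by 0.50, while Spa17 went the other way, with -0.35. A difference above 0 was thus found for 4 of the 5 genes, and for 55.9% of all rows. By rank among the rows of the pair, a difference as high as that of Nrgn was found in 0.0935% of rows and one as high as that of Exph5 in 0.57%. For Siae that share was 12.5%, for Vsig2 17.7% and for Spa17 76.4%.

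The 5 genes did not shift alike on the arrays of replicate 3. Against the mean of PLZF_ON replicates 1 and 2, PLZF_ON replicate 3 differed by -2.16 for Vsig2, -2.15 for Spa17, -1.76 for Siae, -1.34 for Exph5 and -0.90 for Nrgn on the log2 scale. Against the mean of WT replicates 1 and 2, WT replicate 3 differed by 1.08 for Vsig2, 0.42 for Spa17, -0.23 for Exph5, -0.56 for Nrgn and -0.85 for Siae. On PLZF_ON replicate 3 the median level of the T cell markers was also the lowest of all arrays (10.23). The median of 4 epithelial markers was 6.31 on that array, against 5.04 to 5.08 on the other PLZF_ON arrays and 4.91 to 5.44 in WT. Of these 4 markers 2 had a group mean above the receptor percentile over all arrays (5.21) in both groups. The part of such cells in the values of replicate 3 was not tested.

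Some of the 5 genes are best known from other tissues, and markers of those tissues were looked up. All marker counts here and below compare a marker's mean over the 3 arrays of a group with the receptor percentile over all arrays (5.21). That is below the percentile of PLZF_ON replicate 3 itself (5.66), so small differences in these counts between groups are not read. Of 5 neuronal markers, listed since neurogranin is a neuronal protein, 2 exceeded the receptor percentile in PLZF_ON and 0 in WT, with medians of 4.53 to 5.10 in PLZF_ON and 4.49 to 4.72 in WT. Of 5 testis markers, listed for Spa17, 1 exceeded it in each group, with medians of 4.01 to 4.25 in PLZF_ON and 3.75 to 4.07 in WT. Of 5 keratinocyte markers, listed for Exph5, 2 exceeded it in PLZF_ON and 1 in WT, with medians of 4.79 to 5.38 in PLZF_ON and 4.82 to 4.996 in WT.

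Among blood cells, 0 of 5 mast cell markers exceeded the receptor percentile, although their median was 3.50 to 4.28 in PLZF_ON and 2.90 to 3.15 in WT. None of 4 B cell markers exceeded it, and 1 of 5 macrophage markers (Cd68) and 1 of 5 dendritic cell markers did in each group. By limma 0 genes of these lists passed over the 4 arrays, and the part of such cells in the differences of the 5 genes was not tested.

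**Figure D2:**
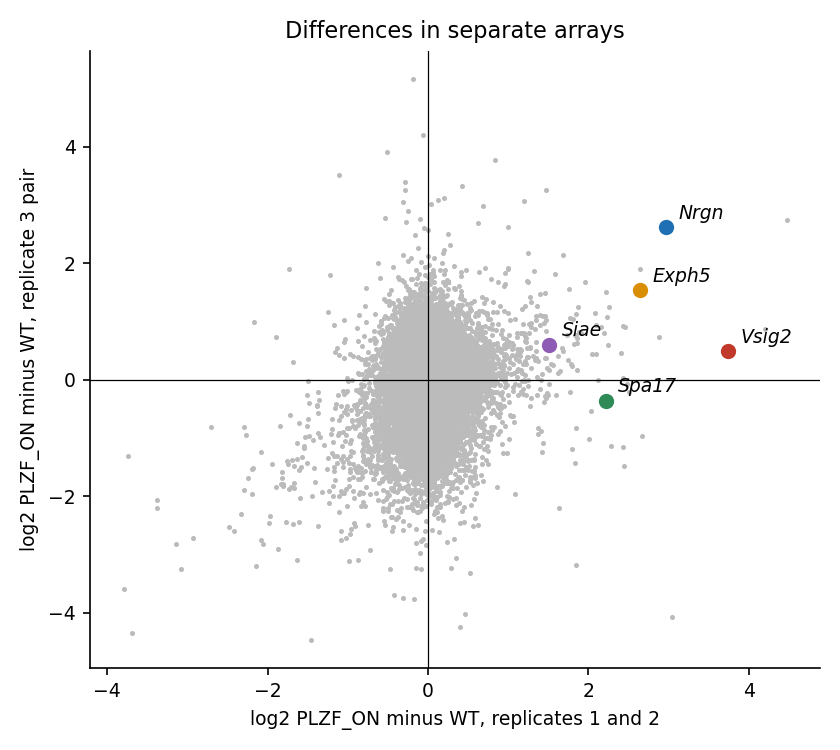
Each grey point is a tested row, with its log2 difference PLZF_ON minus WT over replicates 1 and 2 on the x axis and in the replicate 3 pair on the y axis. The coloured points show Nrgn and Exph5 well above 0 on both axes, Vsig2 and Siae at 0.50 and 0.60 on the y axis, and Spa17 at -0.35. Both replicate 3 values of Exph5 lie below the receptor percentile of their own array.

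Over the 4 arrays the 5 genes had the 5 highest log2 differences of their chromosome in the deposited values, for which they were in part chosen. The place of Exph5 rests on WT values below the receptor percentile, and with WT taken at that percentile its difference was 0.98. The 3 genes named next were not treated in this way, so their differences are not ranked against that value. After the 5, the measured genes of chromosome 9 with the highest log2 differences, picked here after their values were seen, were the kinase gene Ttk (1.35), Endod1 (1.20) and the chemokine receptor gene Ccr9 (1.19). Of 1254 genes 5 were called (0.399%), of which 4 are genes of this set, chosen from the same contrast, so nothing is read from that share. It was 0.159% over all chromosomes (35 of 21981), and single ones ranged from 0% to 0.579%. The remaining gene, the chemokine receptor-like Ccrl2, fell by 1.61 on the log2 scale in PLZF_ON (limma adjusted p = 0.0213). Zbtb16 lies between the 2 stretches, with 205 measured genes between it and the Vsig2 block and 47 between it and Exph5.

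**Figure D3:**
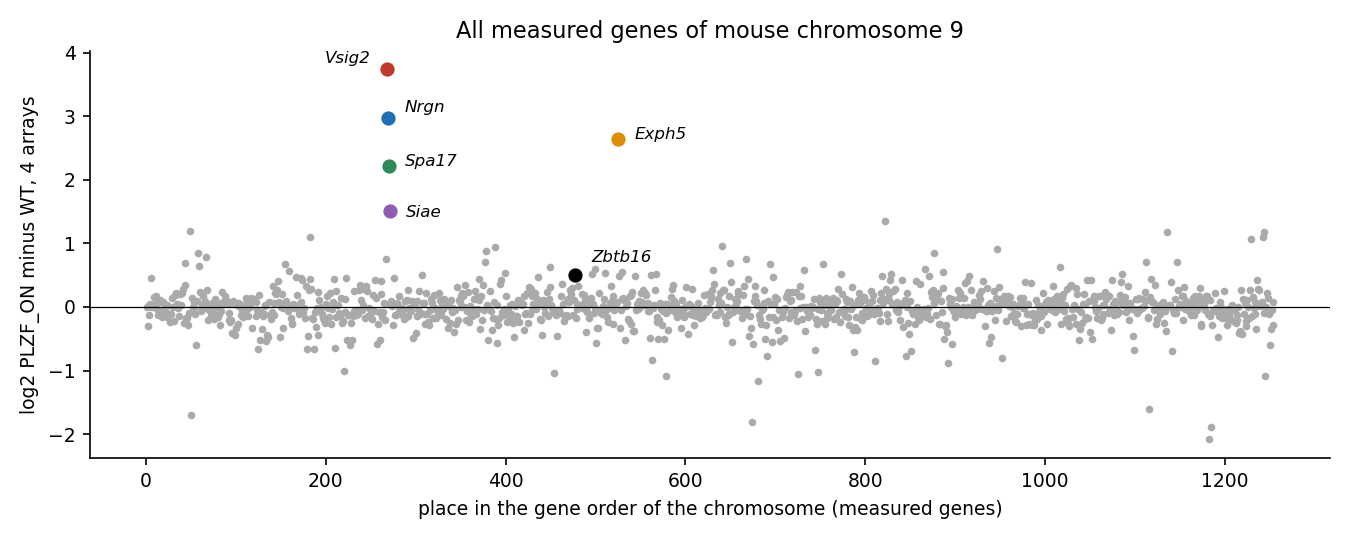
Each point is a measured gene of chromosome 9, placed by its order on the chromosome, with its log2 difference PLZF_ON minus WT over 4 arrays on the y axis. Vsig2, Nrgn, Spa17 and Siae form a column at places 268 to 271 and Exph5 stands at place 525, where its height (2.65) rests on WT values below the receptor percentile (0.98 with WT at that percentile).

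The genes beside the 5 are described next. Since the 5 were chosen from their difference and their position, a neighbour with a like difference could have been taken in. Low values of the direct neighbours follow in part from that choice and do not test how far the difference extended. Of the 20 measured genes nearest to the Vsig2 block, 0 passed limma over all rows (background 0.17%), with a median log2 difference of 0.02, against -0.003 over all rows. An unadjusted p under 0.05 was reached by 3 of the 20, all higher, against 9.41% of all rows, and 1 of these, Esam, also had a fold of at least 1.5, as did 4.13% of all rows. Esam, an adhesion molecule of endothelial cells and the direct neighbour of Vsig2, was at 4.74, 5.39 and 4.34 in PLZF_ON replicates 1 to 3, against 4.32, 4.29 and 4.40 in WT replicates 1 to 3, with a log2 difference of 0.76 over 4 arrays (SE 0.23, limma adjusted p = 0.362). Esam exceeded the receptor percentile on PLZF_ON replicate 2 alone. Msantd2, the next gene, had a log2 difference of -0.21 (SE 0.14, limma adjusted p = 0.757).

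On the other side, Tbrg1, a nuclear regulator of cell growth, was bright and nearly level on the 4 arrays. It was at 8.68, 8.50 and 7.71 in PLZF_ON replicates 1 to 3, against 8.51, 8.58 and 8.65 in WT replicates 1 to 3, with a log2 difference of 0.04 (SE 0.14, limma adjusted p = 0.971). Panx3, a channel protein of cartilage and skin, had a log2 difference of 0.10 (SE 0.17, limma adjusted p = 0.931). The next 8 genes are olfactory receptors. The direct neighbours Esam and Tbrg1 thus had log2 differences of 0.76 and 0.04, beside 3.74 for Vsig2 and 1.51 for Siae at the ends of the block.

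Of the 20 measured genes nearest to Exph5, 0 passed limma over all rows, 2 had an unadjusted p under 0.05 and 0 of them a fold of at least 1.5. Next to it, the RNA helicase gene Ddx10 had a log2 difference of 0.08 (SE 0.13, limma adjusted p = 0.921) and Poglut3, a protein glucosyltransferase gene, 0.48 (SE 0.16, limma adjusted p = 0.42). Around Zbtb16 0 of 20 genes passed, 1 had an unadjusted p under 0.05, and the log2 differences ran from -0.17 to 0.33. Of the 60 neighbours of the Vsig2 block, Exph5 and Zbtb16, 22 had a mean over the 4 arrays at or above the median of the tested rows. For the dimmer neighbours, a difference near 0 says little.

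**Figure D4:**
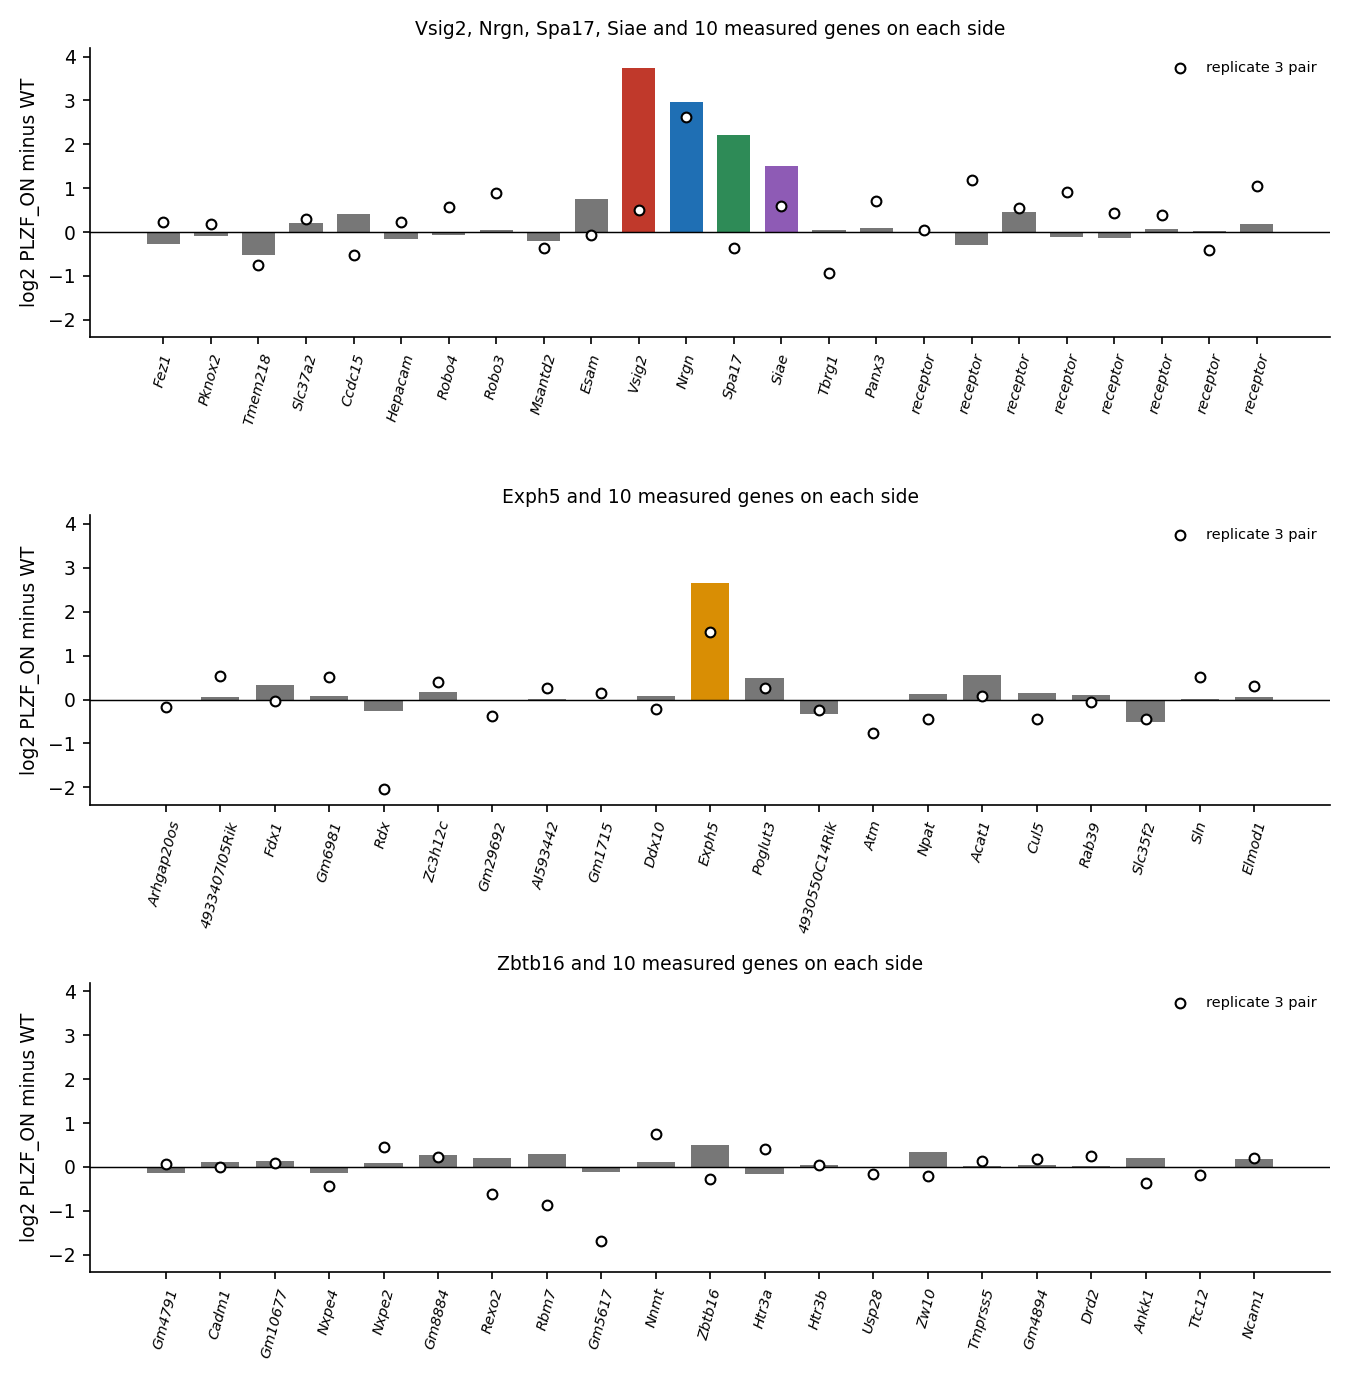
Bars give the log2 difference PLZF_ON minus WT over 4 arrays and open circles that of the replicate 3 pair, for genes in chromosome order around the Vsig2 block, Exph5 and Zbtb16. Only the coloured bars, of genes chosen from this contrast, exceed 1, from 1.51 for Siae to 3.74 for Vsig2. The grey bars lie between -0.53 and 0.76.

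The promoters of the 5 genes are shown as far as they were matched, which was 3 of 5 (Nrgn, Spa17 and Exph5, not Vsig2 and Siae). The sequences are RefSeq's on GRCm38.p6, from 250 bases before to 50 after the first listed start, and capitals mark CCAAT boxes (CCAAT) and GC boxes (GGGCGG) on either strand. The Nrgn window is chr9:37552696-37552995 on the minus strand, that of Spa17 chr9:37613672-37613971 on the minus strand, and that of Exph5 chr9:53301420-53301719 on the plus strand.
Nrgn: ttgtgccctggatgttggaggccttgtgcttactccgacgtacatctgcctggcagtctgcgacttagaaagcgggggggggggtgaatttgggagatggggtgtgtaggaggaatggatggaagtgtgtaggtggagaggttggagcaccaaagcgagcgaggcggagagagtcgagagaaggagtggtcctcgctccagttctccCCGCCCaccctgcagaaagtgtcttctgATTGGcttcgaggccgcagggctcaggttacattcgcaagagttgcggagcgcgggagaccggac
Spa17: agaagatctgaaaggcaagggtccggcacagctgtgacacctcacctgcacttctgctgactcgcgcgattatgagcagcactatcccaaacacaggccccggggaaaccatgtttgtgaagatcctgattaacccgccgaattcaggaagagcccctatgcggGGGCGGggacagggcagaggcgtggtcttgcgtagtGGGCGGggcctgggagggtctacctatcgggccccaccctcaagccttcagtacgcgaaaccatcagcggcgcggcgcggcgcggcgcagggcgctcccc
Exph5: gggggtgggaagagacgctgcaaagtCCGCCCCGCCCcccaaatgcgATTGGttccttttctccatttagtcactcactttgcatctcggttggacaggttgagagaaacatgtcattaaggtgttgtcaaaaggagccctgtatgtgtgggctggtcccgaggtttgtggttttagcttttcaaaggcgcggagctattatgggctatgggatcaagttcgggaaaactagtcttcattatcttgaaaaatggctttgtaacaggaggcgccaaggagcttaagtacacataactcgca

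Each of the 3 windows held a GC box, with 1 match in Nrgn and 2 each in Spa17 and Exph5, and 35.9% of 27025 promoters of the same length hold one. A CCAAT box was found in Nrgn, beginning 15 bases before the start, and in Exph5, 203 bases before it, and in 37.9% of all promoters. The E-box CAGCTG had 1 match in Spa17, against 16.1% of all promoters. The TATA box (TATAAA, 14.2% of all promoters) and the AP-1 motif (TGANTCA, 7.93%) had 0 matches in these windows. The Spa17 window also covers the start of Siae in the gene table, so that these bases lie next to the beginning of both genes. All matches are letters in a window and not shown to be sites.

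Genes related to each member by family, domain or function were listed and tested over the 4 arrays, and most are not known partners of it. Of 117 measured genes in 5 lists 0 passed limma over all rows (background 0.17%), 22 had an unadjusted p under 0.05 (9.41% of all rows) and 10 of these a fold of at least 1.5 (4.13% of all rows). The medians of the 5 lists lay between -0.05 and 0.03 on the log2 scale, against -0.003 over all rows. Where groups are said below not to overlap, this covers all 6 arrays. It held in the higher direction for 5.55% of all rows, and the share in the lower direction was not computed. The genes were named for a small p over 4 of these arrays, so nothing is read from a lack of overlap.

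Among 19 adhesion proteins of the immunoglobulin superfamily (median 0.03), 3 were higher and 1 lower at an unadjusted p under 0.05. Cd200, a membrane protein that signals through an inhibitory receptor, was at 7.06, 6.80 and 5.97 in PLZF_ON replicates 1 to 3, against 4.79, 5.58 and 5.63 in WT replicates 1 to 3, with all PLZF_ON arrays above all WT arrays (log2 difference 1.74 over 4 arrays, SE 0.27, limma adjusted p = 0.102). Without WT replicate 2, which leaves 1 WT array, the log2 difference of Cd200 was 2.14, and in the replicate 3 pair it was 0.33. Its receptor gene Cd200r1 had a log2 difference of 0.94 (SE 0.18, limma adjusted p = 0.149). Vsir, the inhibitory ligand VISTA, had -0.61 (SE 0.21, limma adjusted p = 0.422).

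Of 22 calmodulin partners, 0 were higher and 3 lower at an unadjusted p under 0.05. Ppp3cc, a catalytic subunit of the calmodulin-dependent phosphatase calcineurin, was at 7.25, 7.27 and 6.93 in PLZF_ON replicates 1 to 3, against 8.31, 7.95 and 8.43 in WT replicates 1 to 3, with no overlap (log2 difference -0.87 over 4 arrays, SE 0.17, limma adjusted p = 0.152). Ppp3ca, another catalytic subunit, had -0.54 (limma adjusted p = 0.241), and Camk2g, a calmodulin-dependent kinase, -0.49 (0.319). Camkk2, a kinase upstream of other such kinases, had 0.32 (0.532).

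Among 22 genes of the protein kinase A anchoring list, related to Spa17 by its domain, Akap12, a scaffold of that kinase, was at 6.44, 6.86 and 6.67 in PLZF_ON replicates 1 to 3, against 5.32, 5.19 and 5.74 in WT replicates 1 to 3. The groups did not overlap, also in replicate 3 (log2 difference 1.40 over 4 arrays, SE 0.18, limma adjusted p = 0.0733). Akap11 had 0.53 (limma adjusted p = 0.369), and the regulatory subunits Prkar2a and Prkar2b -0.50 (0.391) and 0.34 (0.599).

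The 31 sialic acid genes, which include the enzymes that add the sugar on which Siae acts, were divided, with 4 higher and 5 lower at an unadjusted p under 0.05. The sialyltransferase St3gal2 was at 6.56, 6.78 and 5.52 in PLZF_ON replicates 1 to 3, against 5.42, 5.38 and 4.96 in WT replicates 1 to 3, without overlap (log2 difference 1.27 over 4 arrays, SE 0.14, limma adjusted p = 0.0536). St3gal6, of the same enzyme family, was at 6.71, 5.53 and 6.33 in PLZF_ON replicates 1 to 3, against 8.30, 7.73 and 8.18 in WT replicates 1 to 3, and did not overlap (log2 difference -1.90 over 4 arrays, SE 0.40, limma adjusted p = 0.185). The related St8sia6 had 0.91 (0.178) and St3gal1 0.46 (0.312).

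Of 23 genes of the Rab27 list, 2 were higher and 1 lower at an unadjusted p under 0.05, and 0 of them had a fold of at least 1.5. Sytl1, a Rab27 effector like Exph5, had a log2 difference of -0.56 (SE 0.14, limma adjusted p = 0.26), and the vesicle GTPase genes Rab3d, Rab3a and Rab11a had 0.57 (0.49), 0.35 (0.506) and -0.32 (0.61).

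**Figure D5:**
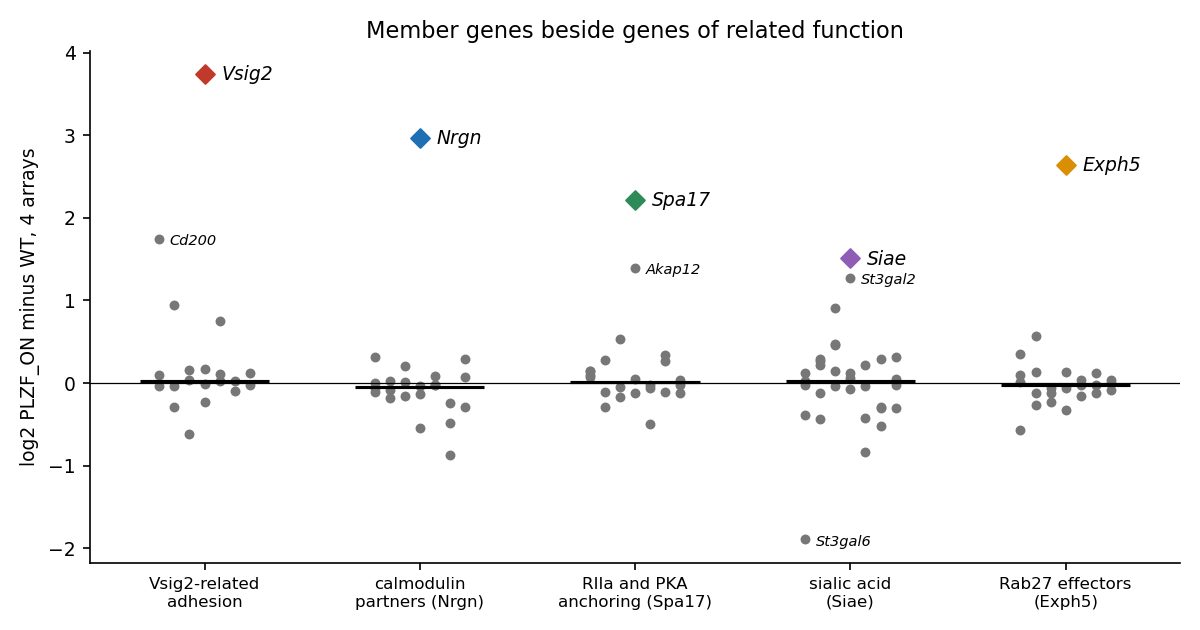
Log2 difference PLZF_ON minus WT over 4 arrays for genes of 5 functional lists (grey points, black line for the list's median) and for the gene each list was built around (coloured diamond). The medians lie between -0.05 and 0.03. Each diamond lies above all grey points of its list, but the genes of the diamonds were chosen from this contrast, so nothing is read from that.

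The profiles of the 5 genes over the 6 arrays were compared with those of all tested rows by Euclidean distance between log2 values centred on their own mean, which describes likeness in these 6 arrays alone. Among the 5, Spa17 and Siae (distance 1.14) and Nrgn and Exph5 (1.24) were closest, and Vsig2 and Siae farthest apart (2.49). The named gene nearest to Nrgn was Tnfsf8, the CD30 ligand, at 0.64, and Tnfsf8 was also nearest to Exph5, at 1.07. Tnfsf8 was at 7.32, 7.66 and 6.31 in PLZF_ON replicates 1 to 3, against 4.45, 5.24 and 4.40 in WT replicates 1 to 3, so that, as for Nrgn and Exph5, PLZF_ON replicate 3 stayed above WT. Exph5 itself was second for Nrgn, the protease gene Prss23 was second for Exph5 (1.16), and Themis, a T cell signalling gene, was the third for both, at 1.35 for Nrgn and 1.18 for Exph5.

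Spa17 was nearest to the peptide transporter Slc15a1 (0.41), the ion cotransporter Slc12a2 (0.61) and the transcription factor Lef1 (0.80). In all 3 of these, replicate 3 differed little between the groups (log2 differences of -0.07, 0.03 and 0.12). The distances include replicate 3, so this likeness, and that of Tnfsf8 to Nrgn and Exph5, follows in part from how the genes were picked. Vsig2 was nearest to Irak3 (1.34), a row of the nuclear envelope gene Syne1 (1.45) and Slc12a2 (1.46). Siae was nearest to Xkrx (0.48), another row of Syne1 (0.61) and Endod1 (0.63), which is on chromosome 9 at place 49. Exph5 and Endod1 were the only genes of that chromosome among the 15 nearest profiles, so none of the 4 adjacent genes was among the 3 nearest profiles of another.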

How the data were processed

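The deposited log2 expression values (1 value per array row) come from Affymetrix whole-transcript arrays hybridised with biotin-labelled targets from total RNA, per the labels' protocols, and RMA, without a version, is named in the submitters' processing notes. No source used here gives the genome build of the array, detection calls or a batch. Values were used as deposited. Of 41345 rows, 23521 with exactly 1 symbol in the platform annotation were tested, 1814 with several were left out, and 16010 were not listed in the table. A gene with several rows was represented by its brightest. Gene order came from the RefSeq table of GRCm38.p6.

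PLZF_ON was compared with WT by limma 3.58.1 in R 4.3.3 (lmFit, eBayes, genotype as the only term, two-sided, Benjamini-Hochberg over all tested rows at 0.05), over replicates 1 and 2 and over all 6 arrays. SEs are moderated, with 2 residual and 4.1 prior degrees of freedom over 4 arrays. The number of arrays limits precision. Scripts were tested on simulated data.

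Members, gene lists and tests were chosen with earlier results of these data known. Named beside the members were 2 direct neighbours a side of the Vsig2 block, neighbours with an unadjusted p under 0.05 and a fold of at least 1.5, the 4 smallest p per list and the 3 nearest profiles per member, without predicted, microRNA, small nucleolar RNA or receptor genes. Ddx10, Poglut3, Ccrl2, Ttk, Endod1 and Ccr9 were added after their values were seen. Markers of 8 other cell types were looked up. Figures were drawn with matplotlib 3.10.9.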

Additional observations from a re-analysis of the deposited data

How the results depend on the processing

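All log2 differences of the 5 genes kept their direction over 4 and over 6 arrays under every alternative run: the replicate number as a block, each array left out, array weights, median centring, a variance trend, a second quantile normalization, all deposited rows together and brighter rows alone (which left out Exph5, so it has no value there). The block, the variance trend and the choice of rows cannot change a log2 difference here. The genes were also chosen for their difference on 4 of these arrays, so nothing is read from the kept direction. For Vsig2 over 4 arrays the value was 3.55 without WT replicate 1 and 3.93 without WT replicate 2, each leaving 1 WT array. In the replicate 3 pair the Vsig2 difference was 0.75 after quantile normalization. The number of rows passing limma over 4 arrays (40) ranged from 0 to 106 on leaving out 1 array, where the lone array of a group is assumed to vary like the other group, and that over 6 arrays (22) from 0 to 107, the highest being without PLZF_ON replicate 3. It was 0 in both when all deposited rows were tested together (3042 and 2100 with an unadjusted p under 0.05), and over 6 arrays 5 with median centring and 259 with array weights. The cause was not tested. With the replicate block 101 rows passed over 4 arrays and 30 over 6. Deviations of same-numbered arrays correlated at 0.092, 0.253 and 0.239. PLZF_ON replicate 1 correlated better with WT replicate 2 (0.124) than with its own number. The remaining pairs of unlike number ran from -0.235 to -0.03, and PLZF_ON replicates 2 and 3 correlated best with their own number. These values do not settle whether the numbers mark a pairing, and genotype was kept as the only term. Of the neighbours 0 passed under any alternative. Of the list genes 1, St3gal6, passed with the replicate block (limma adjusted p = 0.0357), and 0 to 1 passed on leaving out an array.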
